A study of Mus musculus with 10 samples.

Results

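RNA levels of 10 genes of the epidermal kallikrein cascade were followed in murine keratinocytes and CD8+ T cells that were cultured separately or together. The genes were chosen by name in the gene tables of the series, and all 10 of them (Klk5, Klk6, Klk7, Klk8, Klk10, Klk11, Klk13, Klk14, Spink5 and St14) were found among the 25814 genes counted in each library. The series holds 10 poly(A) RNA libraries in 5 groups of 2. Primary keratinocytes were prepared from tail skin of adult C57/B6 mice (8 to 12 weeks old) and kept in serum-free SFM medium with 0.06 mM Ca++. For co-cultures with pre-activated CD8+ T cells, SFM is described as mixed with Ca++-containing X-VIVO at 4 parts to 1. Splenic CD8+ T cells, selected with microbeads, received αCD3/CD28 Abs for 1 d and were harvested, or cultured for 1 further d in medium or together with keratinocytes. A published legend states that T cells were washed off the co-cultures before keratinocyte RNA was measured. For T cells in medium the labels name keratinocyte medium, while the legend of the published RNA levels names the mix. The length of co-culture is given both as 1 d and as 1 h. No source used here says whether the 2 libraries of a group came from separate mice, so the p-values measure only the spread between these libraries. T-cell libraries in medium and in co-culture were numbered here without pairing them.

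Kallikreins are secreted serine proteases that are made as inactive precursors in the upper epidermis. KLK5 (trypsin-like) and KLK7 (chymotrypsin-like) cleave the corneodesmosomes that hold corneocytes together, and in this way drive the shedding of the skin surface. LEKTI, the product of Spink5, inhibits them, and its loss causes Netherton syndrome in man. Matriptase, the product of St14, is a membrane-bound protease that can activate kallikrein precursors.

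The 8 kallikrein genes lie on the plus strand of chromosome 7 within 160.8 kb (43690418 to 43851181, GRCm38), in the order Klk14, Klk13, Klk11, Klk10, Klk8, Klk7, Klk6 and Klk5. Exons of Klk8 and Klk14 overlap those of an antisense transcript, 2310002F09Rik. As the sources used here do not say that strand was used in counting, reads of these pairs cannot be told apart. All exon reads of the 10 genes were uniquely mapped. Exon reads per library ranged from 12864931 to 18019609, and 3 reads per library were taken as the smallest count distinct from 0.

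Promoter sequences (RefSeq, GRCm38.p6, 250 bases before to 50 after a start) were matched for 8 of the 10 genes and those of Klk6, Klk7, Klk8 and Klk10 are printed, chosen after the levels had been seen, as the kallikreins described at most length. No Spink5 sequence is shown and St14 had no entry. Of 2 Klk6 windows, the one that holds TTAAAA is printed, and the other (chr7:43824294-43824593) does not hold it. Capitals mark TTAAAA, which was searched on both strands and was chosen after the sequences had been seen.
Klk6 (plus strand, chr7:43825200-43825499): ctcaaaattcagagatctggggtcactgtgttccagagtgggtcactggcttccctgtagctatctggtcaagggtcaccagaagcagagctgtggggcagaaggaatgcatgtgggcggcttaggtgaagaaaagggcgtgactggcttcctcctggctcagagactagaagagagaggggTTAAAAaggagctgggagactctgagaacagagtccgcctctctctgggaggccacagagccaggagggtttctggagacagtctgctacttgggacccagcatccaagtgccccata
Klk7 (plus strand, chr7:43811044-43811343): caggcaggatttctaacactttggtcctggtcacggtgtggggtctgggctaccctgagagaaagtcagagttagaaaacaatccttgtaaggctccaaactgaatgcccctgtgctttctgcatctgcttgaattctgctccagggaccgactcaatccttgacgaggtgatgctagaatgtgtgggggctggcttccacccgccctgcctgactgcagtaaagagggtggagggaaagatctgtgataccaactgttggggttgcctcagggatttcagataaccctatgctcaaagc
Klk8 (plus strand, chr7:43797327-43797626): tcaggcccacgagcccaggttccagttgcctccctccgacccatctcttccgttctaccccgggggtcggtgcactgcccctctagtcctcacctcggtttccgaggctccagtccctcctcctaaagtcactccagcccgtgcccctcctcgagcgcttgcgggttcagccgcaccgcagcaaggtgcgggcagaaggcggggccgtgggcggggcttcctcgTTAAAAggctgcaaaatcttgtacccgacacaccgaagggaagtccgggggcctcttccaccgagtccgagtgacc
Klk10 (plus strand, chr7:43780804-43781103): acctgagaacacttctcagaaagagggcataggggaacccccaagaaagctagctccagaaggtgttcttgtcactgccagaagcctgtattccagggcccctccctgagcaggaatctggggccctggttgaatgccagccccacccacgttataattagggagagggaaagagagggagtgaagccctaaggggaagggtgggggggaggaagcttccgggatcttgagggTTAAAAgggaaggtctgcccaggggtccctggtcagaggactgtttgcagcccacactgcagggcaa
TTAAAA began 68 bases before the start in this Klk6 promoter, 26 in Klk8 and 17 in Klk10, and was not found in the Klk7 window. It was present in 4 of the 10 kallikrein promoters (Klk6 and Klk11 have 2 starts each) and in 19.2% of 32851 promoters of this length. These 4 include 1 Klk11 window, not printed, where it began 233 bases before the start. As the motif was picked from these sequences, nothing is read from their number. AP-1 (TGANTCA, in 7.81% of all promoters), GRHL (AACNGGTT, in 2.09%) and TATA box (spelled TATAAA, in 13.6%) motifs were in none of the 10 windows, while the GAS motif (TTCNNNGAA, in 8.30%) was in 1 of them, that of Klk10. These matches describe letters only.

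In keratinocytes cultured alone, all 10 genes had reads in both libraries. Spink5 (ENSMUSG00000055561) maps to chromosome 18 (43963235 to 44022501) and St14 (ENSMUSG00000031995) on the minus strand of chromosome 9 (31089402 to 31131853). Levels are given as RPKM, reads per kb of exon scaled to the mapped reads of the library. Klk10 and Spink5 led the order with 272.6 ± 99.5 and 269.8 ± 18.5 RPKM (SD, n = 2), and their libraries overlapped. Klk8 (123.5 RPKM), St14 (76.6 RPKM) and Klk7 (61.4 RPKM) followed, each apart from its neighbours. Klk6 (24.6 RPKM) did not differ from Klk11 (15.7 RPKM) beyond the spread, nor Klk5 (5.77 RPKM) from Klk13 (2.68 RPKM). Klk14 was the lowest at 0.955 RPKM. Of the 18 other kallikrein genes on the list, 12 had no read in any library and Klk9, which lies between Klk10 and Klk8, was the 1 gene to reach 5 RPKM.

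**Figure D1:**
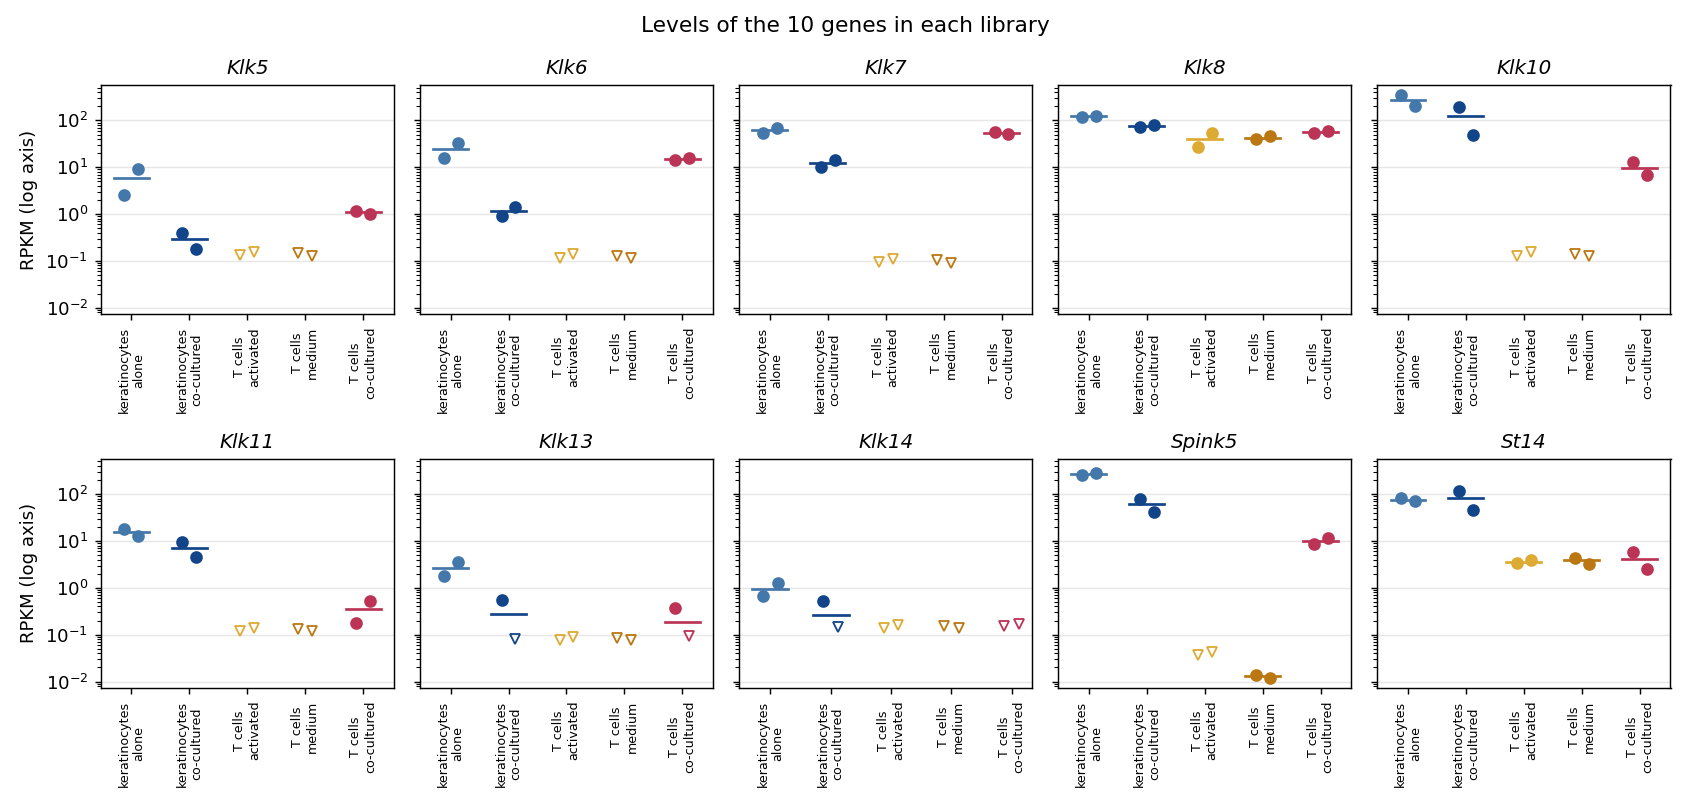
RPKM (log axis) of the 10 genes in each of the 10 libraries, with circles for libraries, lines for group means (n = 2) and open triangles at the level of 3 reads for libraries with 0 reads. Klk5, Klk6 and Klk7 stand higher in co-cultured T-cell than in co-cultured keratinocyte libraries, while Klk8 and St14 have reads in all libraries.

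The first comparison asked how keratinocyte transcripts differed after co-culture with T cells. As medium and Ca++ differed along with the T cells, by the description of the co-cultures, the effects of these cannot be told apart. The corneocyte-shedding protease Klk7 stood at 54.0 and 68.7 RPKM in keratinocytes alone (replicates 1 and 2) and at 10.2 and 13.98 RPKM in co-cultured keratinocytes. The co-cultured libraries lay below both others, a 5.08-fold lower mean (4.39-fold to 6.03-fold with 1 library left out). Klk6, a trypsin-like kallikrein, stood at 15.9 and 33.3 RPKM alone, compared with 0.913 and 1.40 RPKM in co-culture. Its mean was 21.3-fold lower (13.8-fold to 28.8-fold). Klk5, which acts upstream of other kallikreins, had 64 and 205 reads alone and 8 and 4 reads in co-culture, a lower mean RPKM whose fold, 20.0, ranged from 8.77 to 31.8 with 1 library left out.

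Spink5, the inhibitor of these proteases, was lower together with them. It stood at 256.7 and 282.9 RPKM alone, compared with 80.7 and 41.7 RPKM in co-culture, a 4.41-fold lower mean (3.34-fold to 6.46-fold with 1 library left out). Klk10, with 343.0 and 202.3 RPKM alone, had 195.1 and 48.4 RPKM in co-culture, so that the higher co-cultured library nearly reached the lower one of keratinocytes alone. Klk8 was 1.61-fold lower (1.54-fold to 1.70-fold). Klk11 had 18.3 and 13.05 RPKM alone, compared with 9.71 and 4.60 RPKM when co-cultured, and was 2.19-fold lower (1.61-fold to 3.41-fold). Klk13 had 80 and 138 reads alone and 19 and 0 reads in co-culture, and Klk14 had 16 and 27 reads, then 10 and 0 reads. Without co-culture replicate 2 their folds, 9.85 and 3.69, were 4.93 and 1.85. The activating protease St14 differed from the other genes, as its co-cultured libraries (118.3 and 46.8 RPKM) enclosed those of keratinocytes alone (81.8 and 71.4 RPKM).

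Thus 9 of the 10 genes had both co-cultured libraries below both libraries of keratinocytes alone, which held for 24.3% of the 12515 genes tested. In edgeR's quasi-likelihood test with Benjamini-Hochberg adjustment, however, 0 of the 10 genes passed an adjusted p of 0.05, and 0% of all genes were called lower. At an unadjusted p under 0.05 there were 901 genes, among them 4 of the 10 (Klk5, Klk6, Klk7 and Spink5). The log2 change was -2.26 (SE 0.37, adjusted p = 0.523 in edgeR) for Klk7, -4.33 (SE 0.61, adjusted p = 0.456 in edgeR) for Klk6 and -2.09 (SE 0.43, adjusted p = 0.658 in edgeR) for Spink5. DESeq2 called 186 genes and 4 of the 10, and limma called 0 of each. The median log2 change was -1.98 over the 10 genes and 0.02 over all genes tested. Without co-culture replicate 1, which leaves that group with a single library assumed to vary like the others, 1164 genes and 6 of the 10 were called, and without co-culture replicate 2 there were 21 genes and 0 of the 10.

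In these bulk libraries, fewer cells of a type and less RNA per cell cannot be told apart. Markers of suprabasal and cornifying keratinocytes were lower along with the kallikreins. Their summed level was 2929 and 2906 RPKM alone and 1154 and 406.1 RPKM in co-culture, with Dmkn or Sbsn as the most abundant gene. A negative log2 change was found for 11 of 11, with a median of -2.75, 9 at an unadjusted p under 0.05 in edgeR and none called. Of these markers, 10 were lower without overlap and 1 overlapped. The sum of 8 basal markers, carried by Krt14 and Krt5, was 11077 and 11892 RPKM alone and 12708 and 15720 RPKM in co-culture. Taken singly, 6 of the 8 basal markers had a negative log2 change (median -0.57, none called by edgeR and 0 at an unadjusted p under 0.05), and 5 were lower without overlap, 2 overlapped and 1 was higher. Of all 12515 genes tested, 48.7% had a negative log2 change and 901 genes an unadjusted p under 0.05 in edgeR. Without overlap 3042 of them were lower and 2472 higher. T-cell transcripts were present in all keratinocyte libraries, with summed levels of 117.8 and 461.3 RPKM alone and 151.8 and 826.9 RPKM in co-culture, led by Cd3g. They were highest in both replicates 2. Cd8a was at most 1.16 RPKM there, against 84.5 RPKM for Cd4 in co-culture replicate 2, a pair of genes chosen after their values had been seen. The part of these transcripts in the kallikrein levels was not tested.

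**Figure D2:**
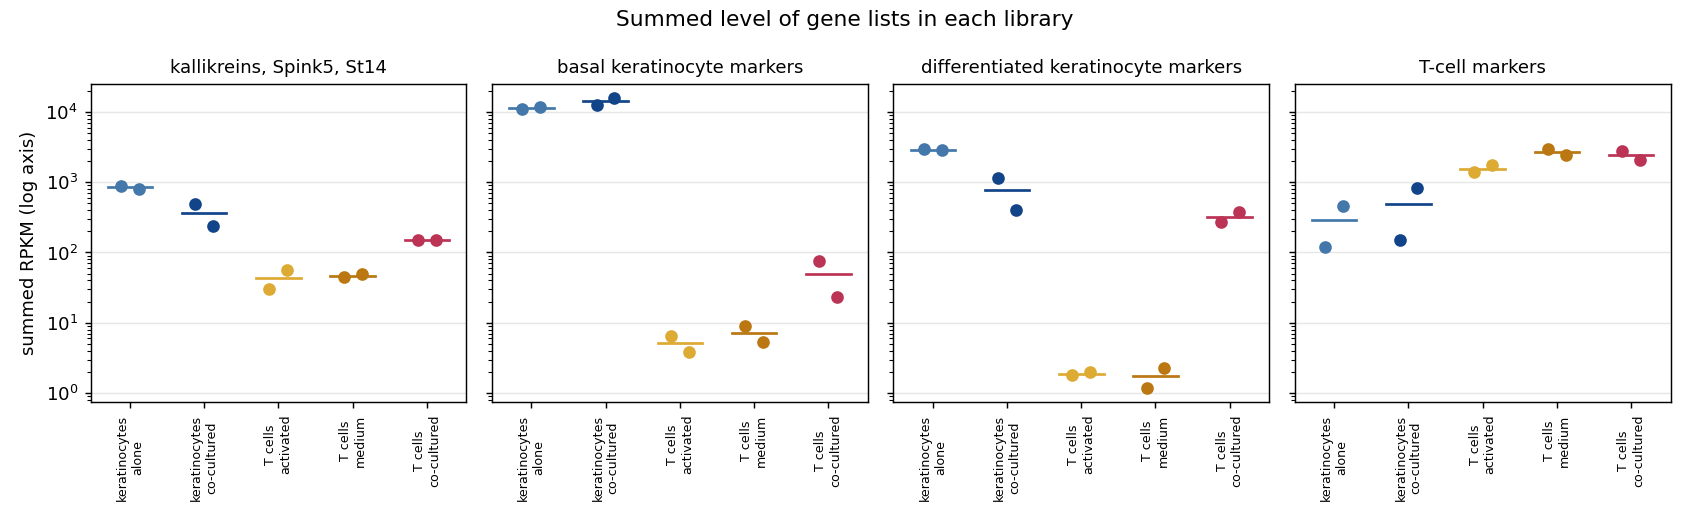
Summed RPKM (log axis) of 4 gene lists in each library, with points for libraries and lines for group means (n = 2). The differentiated markers reach 269.4 and 379.6 RPKM in co-cultured T-cell libraries, against 76.8 and 23.5 RPKM for the basal markers.

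Among genes acting with the kallikreins, 5 of 6 activating proteases, 5 of 8 inhibitors and 7 of 9 substrates were tested in keratinocytes and none was called by edgeR, with 0, 2 and 5 of them at an unadjusted p under 0.05. Median log2 changes were -0.75 for activating proteases, -0.70 for 8 other epidermal proteases, -0.78 for inhibitors and -2.67 for substrates. Corneodesmosin (Cdsn), a substrate of KLK5 and KLK7, stood at 310.8 and 433.0 RPKM alone, compared with 119.2 and 47.9 RPKM in co-culture. Prostasin (Prss8), which acts together with matriptase, had means of 26.1 ± 4.30 RPKM alone and 32.2 ± 9.96 RPKM in co-culture (SD, n = 2), and the groups overlapped. Plau stood at 41.6 and 24.4 RPKM alone and at 24.2 and 7.33 RPKM in its co-cultured libraries, and Tmprss13 at 27.3 and 26.3 RPKM, then 21.5 and 9.41 RPKM, both lower without overlap and without passing the test.

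In T cells without keratinocytes, more than 1 read per library was counted for 2 of the 10 genes, Klk8 and St14. Those of Klk8 cannot be told apart from reads of the antisense transcript. Klk8 stood at 27.1 and 53.1 RPKM in activated T cells and at 39.9 and 45.5 RPKM after culture in medium. St14 stood at 3.41 and 3.88 RPKM in activated T cells and at 4.42 and 3.29 RPKM in medium. Both pairs of groups overlapped. Of Klk8 reads, 24.1% and 21.8% spanned exon junctions in activated T cells, 27.0% and 33.9% in medium, and 28.8% and 26.5% in keratinocytes alone. The other genes had 0 reads in all 4 libraries, apart from 1 Spink5 read in each library in medium. For Klk7, 0 reads allow at most 0.0942 and 0.110 RPKM in activated cells, a limit that covers counting error only.

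T cells in medium had been cultured 1 d longer than activated T cells, so that the effects of medium and of time cannot be told apart. Of the 10 genes, 7 passed the filter on low counts, but Klk5, Klk6, Klk7 and Klk10 had 0 reads in all 4 libraries and passed only through the co-cultured ones, and Klk11, Klk13 and Klk14 were not tested. Spink5, with 2 reads in all, also passed only through the co-cultured libraries, so that nothing is read from its test. Klk8 and St14 could be compared, and 0 were called by edgeR, DESeq2 or limma and 0 had an unadjusted p under 0.05. Of all 11863 genes, 2.32% were called higher and 4.22% lower. Klk8 had a log2 change of 0.22 (SE 0.41) and St14 of 0.21 (SE 0.47). The number of genes called in both directions, 776, was 62 without activated T cells replicate 1 and 57 or 24 without T cells in medium replicate 1 or 2.

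The comparison of T cells co-cultured with keratinocytes against T cells kept in medium without keratinocytes asked which transcripts differed in the presence of keratinocytes. Klk7 stood at 56.3 and 51.1 RPKM (1626 and 1370 reads) in the co-cultured T-cell libraries, where both libraries in medium had 0 reads. Set against 3 reads per library, this was at least 553-fold higher. Klk6 stood at 13.97 and 15.4 RPKM (322 and 330 reads), at least 121-fold higher than in medium. Klk10 stood at 12.8 and 6.95 RPKM (267 and 135 reads), at least 73.5-fold higher. The inhibitor Spink5 stood at 8.58 and 11.6 RPKM (625 and 785 reads), against 1 read in each library in medium, fewer than the 3 reads taken as distinct from 0. The ratio of 785 is therefore loosely set, with a 95% counting interval of 217 to 6486. For these 4 genes the co-cultured libraries lay far above both libraries in medium.

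Klk5 had 24 and 19 reads in co-cultured T-cell libraries and none in medium, at least 7.93-fold higher. Klk11 had 4 and 11 reads, Klk13 had 13 and 0 reads, and Klk14 had 0 reads in both, a level of at most 0.155 and 0.167 RPKM. Klk8, with reads in T cells without keratinocytes too, stood at 53.6 and 60.9 RPKM in co-culture, 1.34-fold higher than in medium and with no overlap. St14 stood at 5.86 and 2.52 RPKM in co-culture and overlapped with medium.

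In edgeR's quasi-likelihood test with Benjamini-Hochberg adjustment, Klk7 (adjusted p = 0.00519), Spink5 (adjusted p = 0.00519), Klk6 (adjusted p = 0.0176) and Klk10 (adjusted p = 0.0470) rose in co-cultured T-cell libraries against medium, higher in 2 of 2 libraries each. These are 4 of the 10 genes, beside 0.261% of 11863 genes called higher. Klk5, Klk6, Klk7, Klk10 and Spink5 passed the filter only through their co-cultured libraries, so that nothing is read from their number. Klk5 (adjusted p = 0.984), Klk8 (log2 change 0.47, SE 0.41) and St14 (log2 change 0.14, SE 0.47) did not pass the test. Limma called Klk5 with 1 or 0.1 added to RPKM (adjusted p = 0.0286 and 0.0284), which made 5 of the 10 genes. In these settings 98 or 105 of 11863 genes were called higher. Klk11, Klk13 and Klk14 were not tested. Both co-cultured libraries lay above both in medium for 6 of the 7 genes tested, beside 14.2% of all genes tested, and again nothing is read from a number that the filter largely set. The same held for Klk11, which was not tested. Klk10 no longer passed without T cells in medium replicate 1 (adjusted p = 0.0825, 19 genes called) or 2 (adjusted p = 0.0998, 16 genes called), or without co-cultured T cells replicate 1 (adjusted p = 0.0690, 52 genes called). All 11863 genes gave 31 calls with every library included. With library size in place of TMM scaling, Klk10 had an adjusted p of 0.114.

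Against T cells harvested after activation, which share the co-cultured libraries with the comparison above, the same 4 genes passed. Adjusted p-values were 0.00217 for Spink5, 0.00231 for Klk7, 0.00540 for Klk6 and 0.00851 for Klk10, beside 4.59% of genes called higher. All 4 had 0 reads in activated T cells and passed the filter only through their co-cultured libraries, so that their number is no support here either. The differences were at least 526-fold for Klk7, 115-fold for Klk6, 70.0-fold for Klk10 and 249.6-fold for Spink5. Klk5 (adjusted p = 0.0959) did not pass. It was called by limma with 1 or 0.1 added (adjusted p = 0.00741 and 0.00800) and with all 10 libraries in 1 fit (adjusted p = 0.0351). In that fit 6 of the 10 genes were called, beside 587 of 13394 genes called higher. Klk8 was 1.43-fold higher (log2 change 0.70, SE 0.41) without passing, and its co-cultured libraries lay narrowly above the activated ones. The number of genes called in both directions, 1222, was 266 without activated T cells replicate 1 and 498 without co-cultured T cells replicate 2.

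Since both cell types were sequenced after co-culture, the levels in their libraries could be set side by side. In co-cultured T-cell libraries Klk7 reached 445% of its mean level in co-cultured keratinocytes (365% to 554% over the 4 pairs of libraries), Klk6 1269% (996% to 1688%) and Klk5 380% (255% to 650%). All 3 proteases were thus higher in the T-cell libraries, with no overlap. The opposite held for Spink5 at 16.5% (10.6% to 27.8%), Klk10 at 8.10% (3.56% to 26.4%), Klk11 at 4.97% (1.85% to 11.6%) and St14 at 5.08% (2.14% to 12.5%). Klk8 lay at 74.8% (66.7% to 83.7%), Klk13 overlapped, and Klk14 had no reads in T-cell libraries. Without co-cultured keratinocytes replicate 1, Klk5 stood at 602%, Klk10 at 20.4% and St14 at 8.96%. Compared with keratinocytes alone, Klk7 in co-cultured T-cell libraries lay at 87.5% and overlapped, while Klk6 lay at 59.6%, Klk5 at 18.9% and Spink5 at 3.74%. The percents of Klk6 and Klk5 depend on the library, as keratinocytes alone had 15.9 and 33.3 RPKM of Klk6 and 2.52 and 9.01 RPKM of Klk5. These ratios are a description and were not tested. How many of all genes lay apart in this way was not counted, so that nothing is read from the number of genes in either direction.

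For comparison, 272 genes were taken whose mean reached 5 RPKM in both keratinocyte groups and stayed under 0.1 RPKM in each of the 4 T-cell libraries cultured without keratinocytes. Their median level in co-cultured T-cell libraries was 0.681% of that in co-cultured keratinocytes, with quartiles of 0.127% and 2.14%. Klk7, Klk10, Klk11 and Spink5 were among the 272. The level of Klk7 exceeded that of 270 of them, Spink5 of 254, Klk10 of 246 and Klk11 of 236. The 5 genes over 100% were Krtdap (500.4%), Klk7 (445%), Sprr2i (188%), Crct1 (139%) and Fam25c (102%), the last 3 named after their values had been seen. Krtdap differed widely between its libraries, with 20.7 and 103.5 RPKM, as did Fam25c, with 6.12 and 26.3 RPKM. The lower Fam25c library lay below the mean of this gene in co-cultured keratinocytes, 15.9 RPKM.

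**Figure D3:**
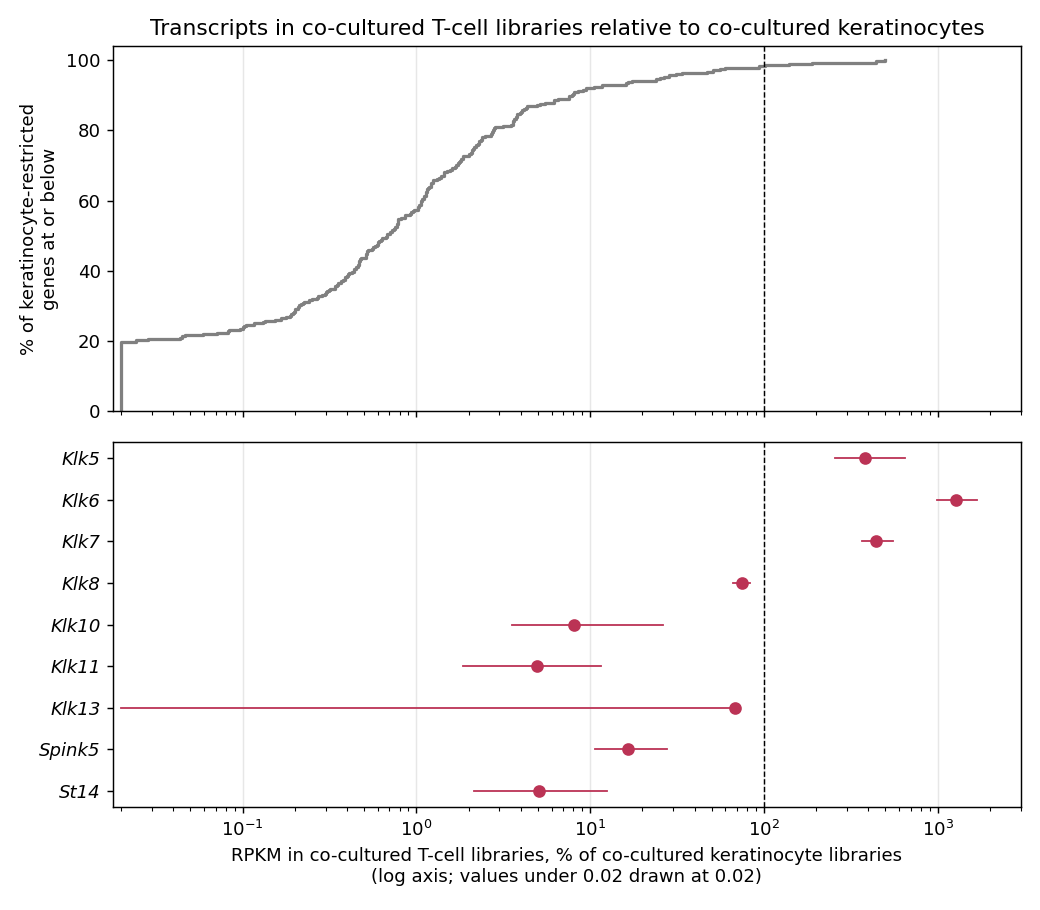
Level in co-cultured T-cell libraries as percent of that in co-cultured keratinocytes (log axis), in the upper panel as the cumulative share of 272 keratinocyte-restricted genes and in the lower panel per gene, with dots for ratios of means (n = 2) and lines from the lowest to the highest of 4 library pairs. Klk5, Klk6 and Klk7 lie above 100%, Klk14 is at 0 and not drawn, values under 0.02% stand at the left edge, the Klk13 line leaves out pairs with 0 reads in keratinocytes, and the median of the 272 genes is 0.681%.

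Keratinocyte markers were present in the co-cultured T-cell libraries at unequal levels. The 8 basal markers summed to 76.8 and 23.5 RPKM, led by Krt14 with 61.6 and 16.8 RPKM, while Krt15 had no read. As percent of co-cultured keratinocytes they ranged from 0% to 18.1% (Itga6), and Itga6 stood at similar means in T cells in medium (4.35 RPKM) and in co-culture (4.58 RPKM). Lamb3 (13.7%) stood at 1.84 and 2.13 RPKM in these groups. The median was 0.307%, or 0.0967% and 0.552% without co-cultured T cells replicate 1 and 2. The 11 differentiated markers summed to 269.4 and 379.6 RPKM, led by Calm4 with 146.4 and 183.5 RPKM, where co-cultured keratinocytes had 9.54 and 8.33 RPKM. They ranged from 1.08% (Dsp) to 1846% (Calm4), so that the lists overlapped, with a median of 18.5%, or 31.3% without co-cultured keratinocytes replicate 1. The median of the 10 genes of the cascade was 42.4%, or 13.2% without co-cultured T cells replicate 1 and 23.3% without co-cultured keratinocytes replicate 2. It lay midway between Spink5 (16.5%) and Klk13 (68.3%). Klk13 rests on few reads, 13 and 0 in co-cultured T-cell libraries and 19 and 0 in co-cultured keratinocytes, so that this median is loosely set. Medians were 51.0% for substrates and 36.9% for other epidermal proteases. Some genes of these lists had similar or higher levels in T cells without keratinocytes, and their percent is then not that of keratinocyte transcripts alone. Mean levels in medium and in co-culture were 231.9 and 241.4 RPKM for Ctsd, 31.5 and 23.9 RPKM for Ctsc, 34.7 and 33.6 RPKM for Blmh, and 69.3 and 58.1 RPKM for Capn1, genes chosen after their values had been seen. Among the 10 genes, means in medium and in co-culture were 42.7 and 57.2 RPKM for Klk8 and 3.85 and 4.19 RPKM for St14. The median of the 5 protease inhibitors with reads in co-cultured keratinocytes (Wfdc12, for example, had none there), 69.5%, was 106.4% and 24.8% without co-cultured T cells replicate 1 and 2 and 113.6% without co-cultured keratinocytes replicate 1. That of activating proteases, 2.79%, was 1.30% and 4.29% without co-cultured T cells replicate 1 and 2. T-cell markers summed to 2820 and 2048 RPKM in the same libraries, led by Cd8b1 or Cd3g. Whether the kallikrein transcripts came from T cells or from keratinocytes among them cannot be told apart in these libraries, and the part of keratinocyte RNA was not tested.

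Among genes acting with the kallikreins, Cdsn (adjusted p = 0.00637), the protease inhibitor Cst6 (adjusted p = 0.00483) and the proteases Asprv1 (adjusted p = 0.00724) and Ctsl (adjusted p = 0.0131) rose in co-cultured T-cell libraries against medium. Cdsn stood at 45.0 and 40.2 RPKM, against 0 reads in both libraries in medium. Cst6 stood at 12.1 and 8.64 RPKM, against 0.115 and 0.0733 RPKM. Of the keratinocyte markers, Krt14, Sbsn, Dmkn and Calm4 were called. Cdsn, Cst6, Asprv1, Dmkn and Calm4 had at most 10 reads in each library of T cells without keratinocytes and passed the filter only through the co-cultured libraries, so that their number is no support. Klk9 stood at 8.01 and 13.4 RPKM in co-cultured T-cell libraries, compared with 9.28 and 12.02 RPKM in keratinocytes alone and 1.87 and 0 RPKM in co-cultured keratinocytes. It passed the test against activated T cells (adjusted p = 0.0140) but not against medium (adjusted p = 0.257). Against activated T cells Slpi, Krt5 and Krtdap passed as well. Klk9, Krt5 and Krtdap, too, passed the filter only through the co-cultured libraries.

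**Figure D4:**
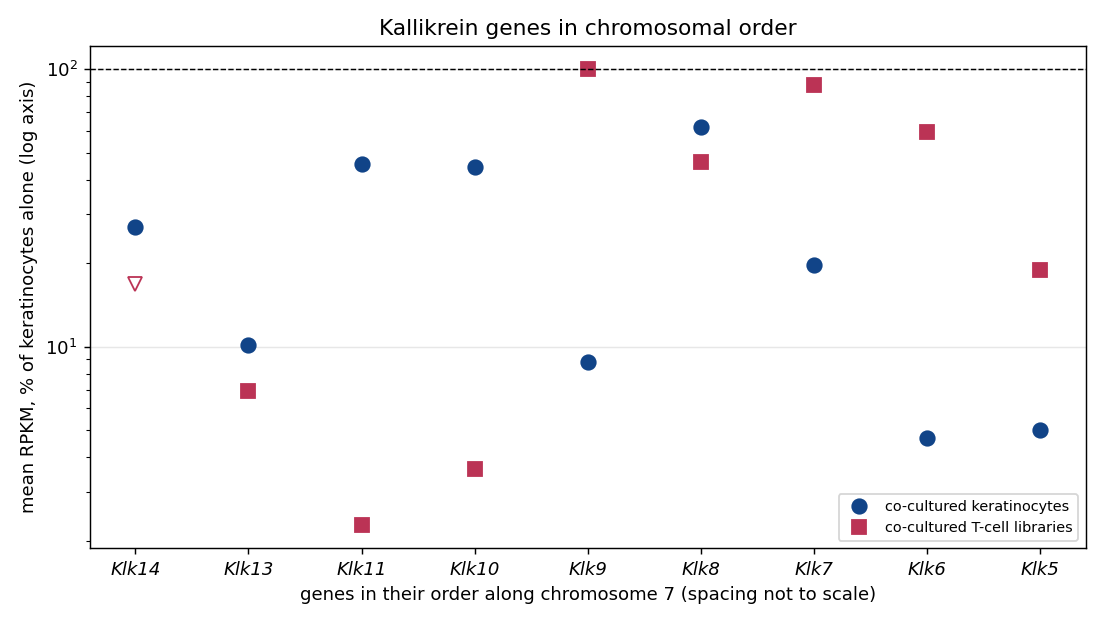
Mean RPKM (n = 2) as percent of the mean in keratinocytes alone (log axis) for 8 kallikreins and Klk9 in their order along chromosome 7, with circles for co-cultured keratinocytes, squares for co-cultured T-cell libraries and an open triangle at the level of 3 reads for Klk14, which had 0 reads there. Squares lie above circles for Klk9, Klk7, Klk6 and Klk5, and the dashed line marks the level in keratinocytes alone.

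The shares of the single kallikreins are given as a description and were not tested. Klk10 made up 61.5% and 44.3% of the summed RPKM of the 8 kallikreins in keratinocytes alone, Klk8 21.7% and 27.5%, and Klk7 9.69% and 15.0%. In co-cultured T-cell libraries Klk7 made up 40.7% and 37.6%, Klk8 38.7% and 44.8%, and Klk10 9.23% and 5.11%. In co-cultured keratinocytes Klk10 made up 67.2% and 32.5% and Klk8 25.1% and 53.9%, so that the leading gene differed between these 2 libraries and both shares overlapped with those of keratinocytes alone. Klk7 made up 3.51% and 9.39% there, below its shares in keratinocytes alone. Exon junctions were spanned by 16.1% and 13.7% of Klk7 reads in co-cultured T-cell libraries and by 15.95% and 14.3% in keratinocytes alone. For Klk6 the shares were 23.3% and 18.5%, against 22.1% and 22.5%, which overlapped as for Klk7. They were lower for Klk10 (17.6% and 9.63%, against 23.6% and 21.3%) and for the few reads of Klk5 (8.33% and 10.5%, against 18.75% and 20.98%). For Spink5 they were higher (46.6% and 58.5%, against 43.97% and 41.4%), and none of these differences was tested.

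The difference between the co-culture effects in T cells and in keratinocytes was tested directly. Klk7 (adjusted p = 0.00298), Spink5 (adjusted p = 0.00298), Klk6 (adjusted p = 0.00730) and Klk10 (adjusted p = 0.0341) had a higher effect in T-cell than in keratinocyte libraries by edgeR. These are 4 of the 10 genes, beside 0.523% of 13202 genes called higher. In T cells in medium, however, Klk6, Klk7 and Klk10 had 0 reads and Spink5 had 2. The T-cell side of these differences thus rests on an empty or nearly empty group, and nothing is read from their number. Klk5 (adjusted p = 0.0709), Klk11 (adjusted p = 0.177), Klk13 (adjusted p = 0.687), Klk8 (log2 difference 1.10, adjusted p = 0.626) and St14 (log2 difference 0.02, adjusted p = 1.00) did not pass. Klk14 did not pass either, and its SE of 5750 (log2 difference 1.91) was too large for its change to be read. Klk5 was called with DESeq2 (adjusted p = 6.93e-06), with no filter on low counts (adjusted p = 0.0101) and with limma with 0.1 added (adjusted p = 0.0183), and Klk11 with DESeq2 (adjusted p = 0.00870) and with no filter (adjusted p = 0.0477). Klk10 was not called with library size in place of TMM scaling (adjusted p = 0.0560), with limma on log2 RPKM with 1 added (adjusted p = 0.0976) or when any 1 of the 6 libraries of keratinocytes alone, T cells in medium and co-cultured T cells was left out (adjusted p up to 0.109). The number of genes called, 76 in all, was 28 or 21 (without keratinocytes alone replicate 1 or 2), 28 or 30 (without T cells in medium replicate 1 or 2) and 39 or 46 (without co-cultured T cells replicate 1 or 2). Cdsn, Cst6, Slpi, Asprv1, Ctsl, Lor, Sbsn, Dmkn and Calm4 passed in the same direction.

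The genes whose pattern over the 10 libraries was most like the mean of the 10 genes, among 11791 candidates, were Atp6v1c2 (Pearson r = 0.994), Lipk (r = 0.988), Ly6g6c (r = 0.988), Gdpd3 (r = 0.983) and Lypd5 (r = 0.983). The 10 genes themselves had r values from 0.845 for St14 to 0.978 for Spink5, but each is part of the mean it is set against. Ly6g6c had means of 254.1 RPKM in keratinocytes alone, 59.8 RPKM in co-cultured keratinocytes and 4.72 RPKM in co-cultured T-cell libraries. These r values describe 5 groups of 2 libraries each.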

How the data were processed

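Poly(A) RNA of 10 libraries was sequenced by the authors (single-end, 59 bases) and mapped to GRCm38 with CLC Genomics Workbench 7.5.1. The deposited tables hold raw counts of exon reads and, per the file headers, RPKM values, written with decimal commas. Total exon reads were tested in R 4.3.3 by edgeR 4.0.16 (quasi-likelihood, TMM scaling, filterByExpr, Benjamini-Hochberg over all genes tested, threshold 0.05): keratinocytes in 1 fit, the 3 T-cell groups in another, and the difference of effects in a fit of 8 libraries. Other settings were limma 3.58.1 on log2 RPKM (pseudocount 1 or 0.1), DESeq2 1.42.0, other filters and scalings, and each library left out. Floors are 3 reads per library and intervals 95%, for counting error only. Tables were made with pandas 2.3.3, numpy 2.4.6 and scipy 1.17.1 under Python 3.11.15, figures with matplotlib 3.10.9. The fits were tested on simulated data.

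The 10 genes and all lists were chosen with earlier results of these data known. Named were the 10 genes, the called genes of each list or otherwise its 3 most abundant, and the 5 genes most like the mean of the 10 (log2 RPKM with 0.1 added, mean of 1 RPKM or more in any group). Lists held other kallikreins, activating proteases, other epidermal proteases, inhibitors, substrates, and markers of basal and differentiated keratinocytes, T cells, B cells, myeloid cells, fibroblasts and melanocytes.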

Additional observations from a re-analysis of the deposited data

Results flagged for a closer look

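The effect of co-culture differed between T-cell and keratinocyte libraries by a test of the difference itself for 4 genes. In edgeR's fit of 8 libraries, the adjusted p was 0.00298 for Klk7 and 0.00298 for Spink5, both higher in 2 of 2 co-cultured T-cell libraries and lower in 2 of 2 co-cultured keratinocyte libraries. It was 0.00730 for Klk6 and 0.0341 for Klk10, with the same directions in as many libraries. The call of Klk10 was lost without any 1 of the 6 libraries of keratinocytes alone, T cells in medium and co-cultured T cells (adjusted p up to 0.109), with library size in place of TMM scaling (0.0560) and with limma on log2 RPKM with 1 added (0.0976). Over these settings the adjusted p stayed at or under 0.0332 for Klk6, 0.0227 for Klk7 and 0.0290 for Spink5. All of these settings rest on T cells in medium, where Klk6, Klk7 and Klk10 had 0 reads and Spink5 had 1 read per library. Their direction was therefore largely set by that group, and nothing is read from the number of genes. Where 10 or more reads were required in every library, these 4 genes were not tested. The keratinocyte markers Calm4 (0.00263), Sbsn (0.00604), Dmkn (0.00730) and Lor (0.0424) and the substrate Cdsn (0.00604) passed the same edgeR test in the same direction. Transcripts of T cells and of keratinocytes among them cannot be told apart in these libraries, and medium differed between keratinocytes alone and in co-culture by its description. No explanation was tested.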

How the results depend on the processing

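In keratinocytes 0 of the 10 genes were called by edgeR, with 4 at an unadjusted p under 0.05, against 4 called by DESeq2, 0 by limma and 0 to 6 with 1 library left out. Genes called there, 0 of 12515, numbered 186 with DESeq2, 11 with no filter on low counts, 4 with all 10 libraries in 1 fit and 0 to 1164 with 1 library left out. With a replicate block, 2 genes and 0 of the 10 were called, with 2748 genes and 8 of the 10 at an unadjusted p under 0.05 in edgeR. The labels pair these libraries only by number, and deviations of same-numbered libraries from their group means had r = 0.558 over 12515 genes. In T cells in medium against activated, 776 genes became 1947 with DESeq2, 1945 with no filter and 24 to 1067 with 1 library left out. In co-cultured against activated T cells, 1222 became 2344, 2425 and 266 to 1093. Against medium, 31 became 87 with DESeq2, 141 with no filter, 99 or 107 with limma on log2 RPKM with 1 or 0.1 added, 83 with all libraries in 1 fit, 0 with 10 or more reads required in every library and 16 to 52 with 1 library left out. For the difference of effects, 76 became 358 with DESeq2, 205 with no filter, 0 with 10 or more reads and 21 to 105 with 1 library left out. Where 10 or more reads were required, 0 of the 10 genes were called in place of 4 in each of the 3 comparisons with co-cultured T cells, since genes at 0 in other T-cell libraries were then not tested. Library size in place of TMM moved the median of all genes to -0.13 (medium) and -0.17 (co-culture) on the log2 scale against activated T cells, with 201 genes higher and 500 lower, and 396 higher and 762 lower. The median percent of keratinocyte level, 42.4%, ranged from 13.2% to 47.7% with 1 library left out.

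The log2 change of St14 in keratinocytes (0.15) turned to -0.036 and -0.038 with limma (1 and 0.1 added) and ranged from -0.58 (without co-culture replicate 1) to 0.61 with 1 library left out. In T cells it ranged from -0.24 to 0.78 against activated and from -0.46 to 0.56 against medium, both lowest without co-culture replicate 1. Its difference of effects had a highest value of 0.69 and turned to -0.05, -0.44, -0.12 and -0.58 without keratinocytes alone replicate 1, co-cultured keratinocytes replicate 2, T cells in medium replicate 2 and co-cultured T cells replicate 1. Klk8 in medium ranged from -0.19 (without activated T cells replicate 1) to 0.87. None of these was called, and other causes were not tested. Depth limits the genes with few reads, such as Klk5, Klk13 and Klk14.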

Other observations

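Markers of other cell types varied between the libraries. B-cell markers, led by Cd79b, summed to 29.4 and 31.0 RPKM in activated T cells, 44.2 and 92.3 RPKM in medium and 16.6 and 27.2 RPKM in co-culture. Melanocyte markers summed to 17.9 and 6.97 RPKM in keratinocytes alone, led by Tyrp1 or Pmel, 20.2 and 15.4 RPKM in co-cultured keratinocytes, and 5.72 and 0.365 RPKM in co-cultured T-cell libraries. Fibroblast markers summed to at most 2.51 RPKM in any library. Myeloid markers, led by Cd68 or Lyz2, ranged from 15.0 to 68.6 RPKM over the 10 libraries.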
